A study of Danio rerio with 55 samples.

Results

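The genes ezh2, ezh1 and suz12b of Polycomb Repressive Complex 2 (PRC2) were followed across all RNA-sequencing libraries of a zebrafish series on the loss of Ezh2. They were picked by their Ensembl identifiers (ENSDARG00000010571, ENSDARG00000037894 and ENSDARG00000098924), so that the members are 3 of the 32266 genes in each count table. The choice of genes uses no measured value, although earlier results of these data were known when it was made. The use of sense minus antisense counts for ezh2 and ezh1 was set with that choice. It was set because their counts lie on both strands in some libraries. The gene table gives the symbols EZH2, ezh1 and SUZ12 to these identifiers. It gives SUZ12 to a second identifier as well, ENSDARG00000070256, and the name suz12b for the third member is the one under which it was picked.

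The samples were pools of whole embryos in a TU/TLF mixed background. MZezh2 mutant embryos carried the nonsense allele hu5670, which puts a stop codon in the part of ezh2 that encodes the catalytic SET domain, and had neither a maternal nor a zygotic wild-type copy of the gene. They came from crosses of fish whose germ cells had been replaced by mutant germ cells through transplantation, and the wild-type embryos came from siblings that had received wild-type germ cells. The MZezh2 mutant and wild-type groups held 6 and 5 libraries at 0 hours post-fertilization (hpf). They held 7 and 5 libraries at 3.3 hpf and 7 and 6 libraries at 24 hpf, which makes 36 libraries, made from RNA depleted of ribosomal RNA. No source used here says which replicates came from separate clutches, so p-values measure the spread between these pools.

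PRC2 places methyl groups on lysine 27 of histone H3, and its trimethylated form, H3K27me3, marks silent developmental genes such as the Hox clusters. Ezh2 and Ezh1 are alternative catalytic subunits. Suz12 and Eed are required for the activity of either, and Rbbp4 or its relatives complete the core. At 0 hpf the RNA of the embryo is the store laid down by the mother during oogenesis, 3.3 hpf follows the onset of transcription from the embryo's own genome, and by 24 hpf the main tissues have formed.

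The total count per library, over both strands, ran between 2736282 and 24041447. The reverse-strand column held the sense reads in every library, and antisense reads were between 1.48% and 18.8% of the reads assigned by strand. Marker genes separated 24 hpf from 3.3 hpf, in that all 7 egg markers passed the test downward in mutants and in wild type alike. All 5 tissue markers found in the table passed it upward. Of all genes tested, 35.4% in mutants and 34.2% in wild type passed it downward, and 40.6% and 41% upward. Between 0 and 3.3 hpf, 0 of 7 egg markers passed it. Of the first zygotic markers, 3 of 6 in mutants and 4 of 6 in wild type passed it upward there.

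The antisense reads of ezh2 split the libraries into 2 sets. In 18 libraries, 3 in each of the 6 groups, ezh2 had between 325 and 1920 antisense reads, which made up 11.8% to 50.2% of its reads. This is a level of 33.1 to 185 CPM (counts per 1000000 counts, here of the library's total over both strands). In the other 18 libraries it had between 0 and 62 antisense reads, at most 6.34 CPM. The 2 sets are called the high and the low class below, and the limit between them, 20 antisense CPM, was placed in the gap after the values were seen. Each group holds libraries of both classes, so that class as such did not coincide with genotype. The low class was mixed at 0 and 3.3 hpf, however. Its wild-type libraries had 1.48% to 1.58% antisense reads over all genes. Mutant replicate 4 at 0 hpf had 10.8%, and mutant replicates 4 and 5 at 3.3 hpf had 18.8% and 9.59%. In low-class comparisons of these stages, genotype and this difference cannot be fully told apart. In the high class ezh1 had 6 to 3632 antisense reads and in the low class 0 to 6, so that ezh1 did not separate the classes, whereas suz12b had at most 5 antisense reads in the high class and 178 in the low class. What gave rise to the antisense reads was not tested.

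**Figure D1:**
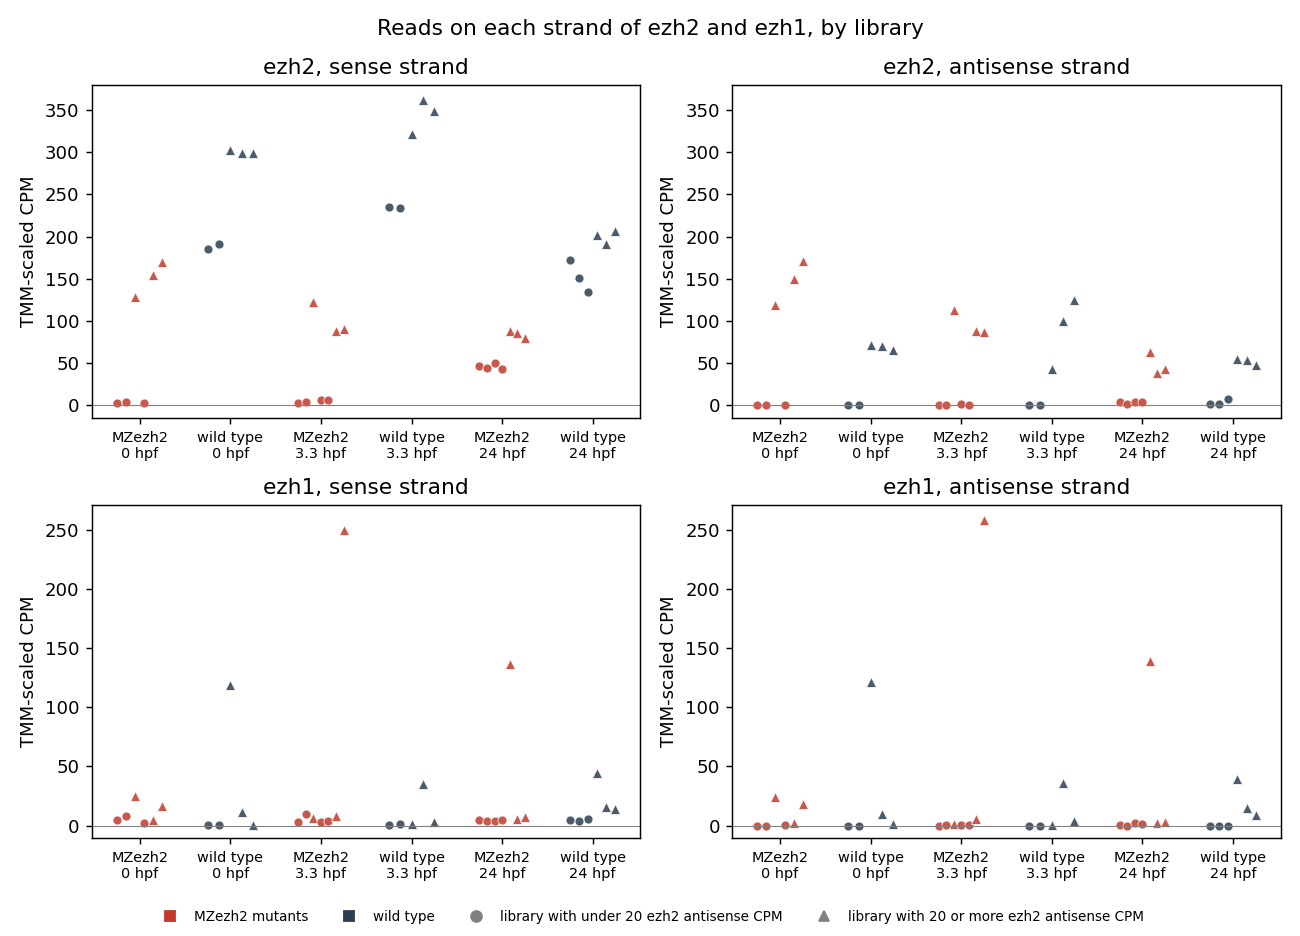
Reads of ezh2 (top) and ezh1 (bottom) on the sense strand (left) and the antisense strand (right) in each library, in TMM-scaled CPM, with MZezh2 mutants in red left of wild type at each stage. Triangles are high-class libraries and circles low-class libraries; in the mutant triangles at 0 and 3.3 hpf the ezh2 sense and antisense levels are about the same height, and 1 mutant library at 3.3 hpf has an ezh1 antisense level of 258 CPM.

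Levels are therefore given as net CPM, the sense count minus the antisense count in CPM of the library's net counts, scaled with TMM factors so that libraries can be compared. A negative net CPM means that antisense reads outnumbered sense reads. This occurred for ezh2 in 2 and for ezh1 in 7 of the 18 high-class libraries, and for suz12b in none. The quasi-likelihood test of edgeR was applied to net counts for each genotype and stage difference, in which negative values had to be set to 0. A gene passed the test at a Benjamini-Hochberg adjusted p below 0.05 over all genes tested. All 3 members were abundant enough to be tested in every comparison that used both library classes.

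ezh2, the gene that carries the mutation, was all but missing from mutant embryos at the early stages and present at a reduced level at 24 hpf. At 0 hpf its net level was lowest at -1.52, median 3.14 and highest 9.68 CPM in the 6 MZezh2 mutant libraries, against 185, 191, 231, 228 and 234 CPM in the 5 wild-type libraries. Every mutant library was below every wild-type library. The means were 3.41 ± 3.65 CPM in mutants and 213.8 ± 24.0 CPM in wild type (SD, n = 6 and 5), and the log2 fold change of mutants over wild type was -5.82 (SE 0.67, adjusted p = 0.00045, edgeR quasi-likelihood test).

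At 3.3 hpf the picture was the same. Net ezh2 was lowest at -0.095, median 3.56 and highest 9.59 CPM in the 7 mutant libraries, against 235, 234, 278, 262 and 224 CPM in the 5 wild-type libraries, with no overlap. The log2 fold change was -5.75 (SE 0.56, adjusted p = 9.1e-05, edgeR). In pools of whole embryos with many cells, as from this stage on, fewer cells with the RNA and less of it per cell cannot be told apart. In relation to these early differences, 0.477% of the 15931 genes tested at 0 hpf and 0.358% of the 15929 tested at 3.3 hpf passed the test downward in mutants, and 5.27% and 5.44% passed it upward.

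At 24 hpf mutant embryos contained ezh2 RNA in every library. Its net level was lowest at 25.4, median 42.8 and highest 47.9 CPM in the 7 mutant libraries, and lowest at 127, median 148 and highest 169 CPM in the 6 wild-type libraries. The groups did not overlap, and the mean was 39.9 ± 7.58 CPM in mutants and 148.1 ± 15.0 CPM in wild type (SD, n = 7 and 6). This is a 3.70-fold lower level in mutants, a log2 fold change of -1.89 (SE 0.15, adjusted p = 1.1e-05, edgeR), at a stage where 0.145% of 17907 genes passed the test downward and 0.29% upward. With all 36 libraries in 1 fit the value was -1.89 as well, but the adjusted p was 0.0839. That fit takes 1 estimate of spread per gene from all 6 groups, the earlier stages included.

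Between stages, ezh2 rose in mutants, while no change passed the test in wild type. Between 3.3 and 24 hpf the log2 change in mutants was 3.17 (SE 0.47, adjusted p = 3.0e-07, edgeR), an 8.98-fold rise. Its size depended on scaling, and with relative log expression (RLE) size factors it was 3.50. In wild type the change over the same interval was -0.73 (SE 0.48, adjusted p = 0.163, edgeR), and -0.40 with RLE size factors. In the low class alone ezh2 fell by 0.64 (adjusted p = 0.0258). All stage changes come from the fit with 1 estimate of spread per gene over mutant and wild-type libraries. The SE of 0.48 is therefore not a measure of the wild-type spread alone. Wild-type net levels were at most 169 CPM at 24 hpf and at least 224 CPM at 3.3 hpf. The difference between the mutant and wild-type changes, the interaction of genotype and stage, was 3.90 on the log2 scale (SE 0.66, adjusted p = 0.00018, edgeR), and 4.44% of 20702 genes passed that interaction. The samples of 3.3 hpf enter both sides of these values, so that they restate the narrowing of the genotype difference between the stages.

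Mean net ezh2 in mutants was 3.41 CPM at 0 hpf, 4.47 ± 2.97 CPM at 3.3 hpf and 39.9 CPM at 24 hpf. The first pair of levels overlapped, with a log2 difference of 0.28 (SE 0.48) that did not pass the test. In wild type the order of the means, low to high, was 24 hpf (148.1 CPM), 0 hpf (213.8 CPM) and 3.3 hpf (246.5 ± 22.5 CPM). The 0 and 3.3 hpf levels overlapped, and their log2 difference of 0.21 (SE 0.50) did not pass the test, although every 24 hpf library was below every earlier one. Between 3.3 and 0 hpf, 1.15% of genes passed the test upward and 1.74% downward in mutants, and 1.51% upward and 1.18% downward in wild type.

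**Figure D2:**
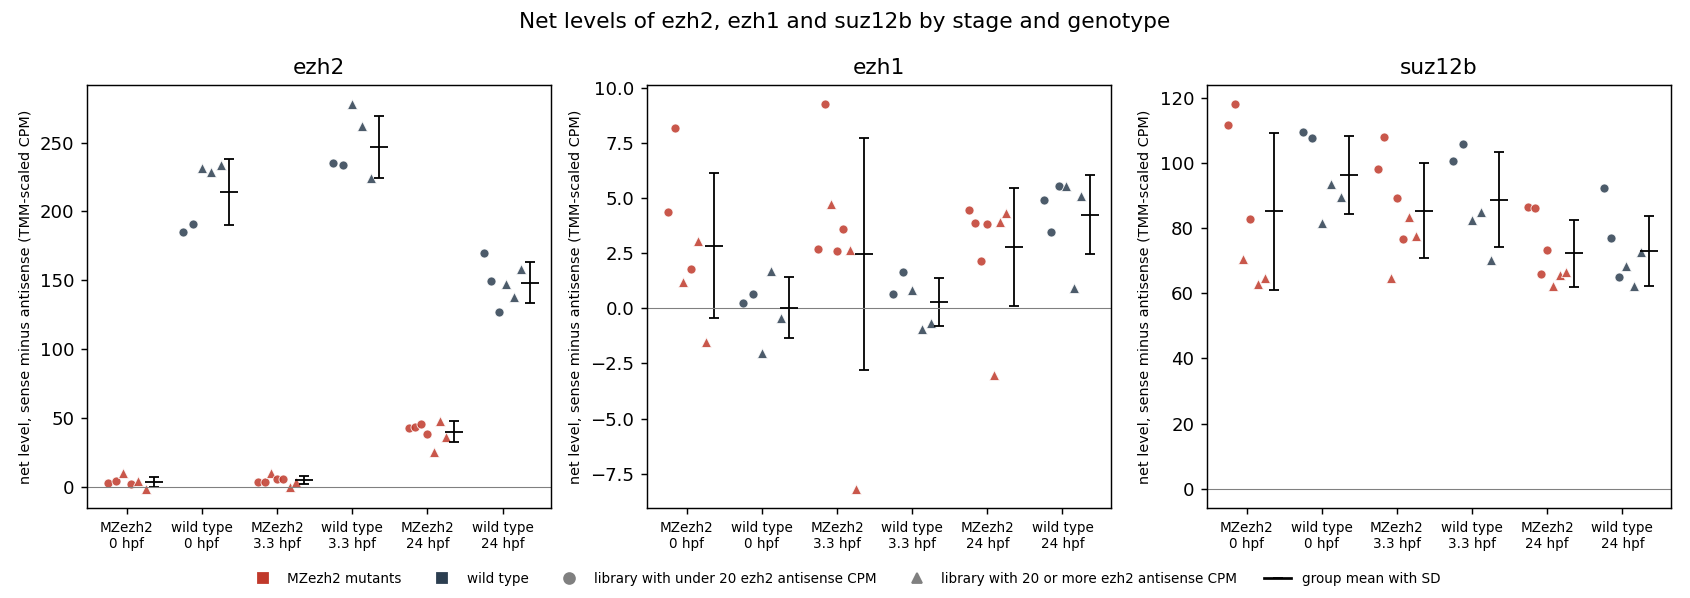
Net level of ezh2, ezh1 and suz12b (sense minus antisense, TMM-scaled CPM, each panel on its own scale) in each library, by stage and with MZezh2 mutants left of wild type. Symbols show the library class, and the black mark beside each group is its mean with SD; ezh2 is the one gene of the 3 whose groups are separated at each stage, ezh1 reaches at most 9.25 CPM, and suz12b overlaps between genotypes at every stage.

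The column of counts that is read decided how large the loss of ezh2 RNA appeared. With the sense column alone, the log2 fold change at 0 hpf was -1.74 (adjusted p = 0.41, edgeR), and with both strands counted together it was -1.01 (adjusted p = 0.737). At 3.3 hpf these values were -2.69 (adjusted p = 0.127) and -2.05 (adjusted p = 0.36). At 24 hpf the sense column still passed the test, but the unstranded one gave -1.29 (adjusted p = 0.124).

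The high class is defined by antisense reads of ezh2 alone. Over all genes, antisense reads were 2.14% to 3.00% in the high class and 1.48% to 18.8% in the low class. In the 3 high-class mutant libraries of 0 hpf, ezh2 had 1271 to 1903 sense reads and 1181 to 1920 antisense reads, so that 48.0% to 50.2% of its reads were antisense. The 3 low-class mutant libraries of that stage had 22 to 96 sense and 0 to 7 antisense reads. In the high-class mutant libraries of 0 and 3.3 hpf, 6 in all, the counting interval of the net level (95%, from the reads of both strands, covering counting error alone) included 0. For ezh2 it excluded 0 in each low-class library.

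Within the low class, net ezh2 was 2.56, 3.71 and 2.05 CPM in mutants against 185 and 191 CPM in wild type at 0 hpf. The last of the mutant values is the difference of 22 sense and 7 antisense reads. The log2 fold change there was -5.95 (SE 0.30, adjusted p = 0.0054, edgeR), and at 3.3 hpf it was -5.66 (SE 0.26, adjusted p = 0.00071). Within the high class the log2 fold changes were -5.64 and -5.90, with larger errors (SE 1.05 and 1.03) and an adjusted p of 0.0599 and 0.0594, which did not pass the test. At 24 hpf both classes passed the test. At 0 hpf the wild-type libraries themselves separated by class, with 228 to 234 CPM in the high class and 185 to 191 CPM in the low class. Those low-class libraries were replicates 1 and 2, so class and replicate number cannot be told apart there.

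**Figure D3:**
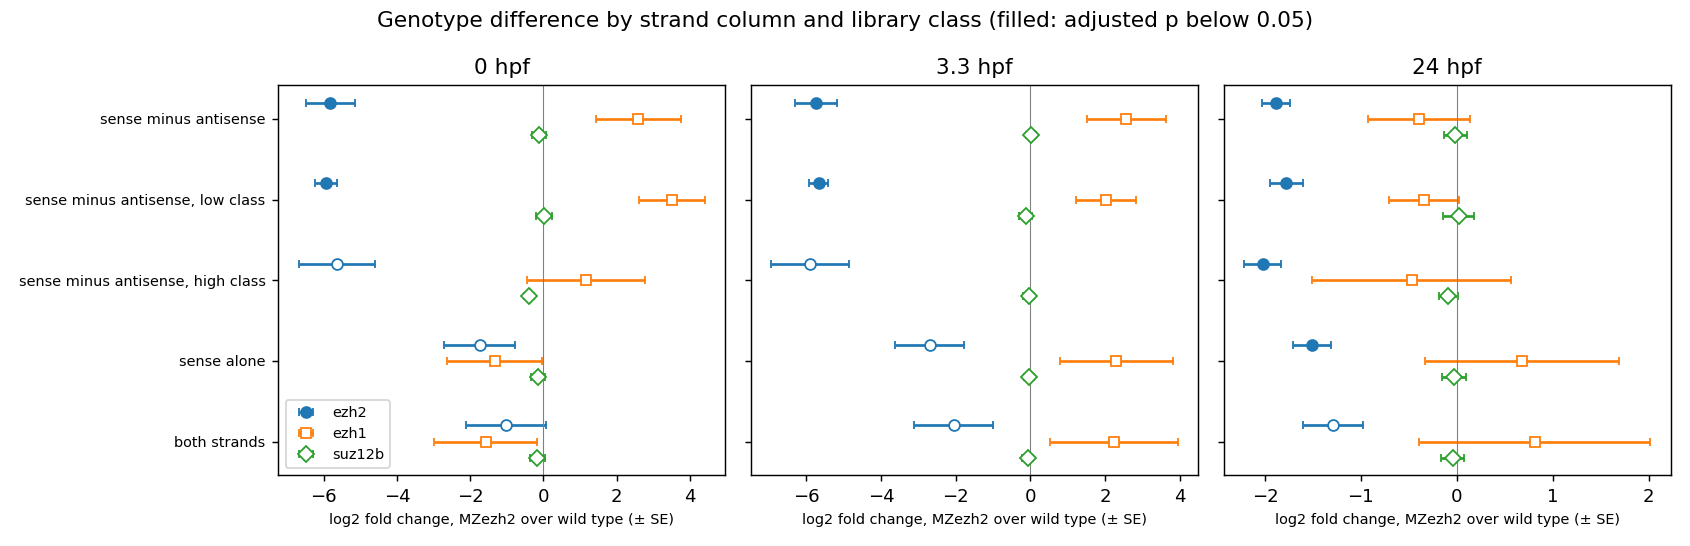
Log2 fold change of MZezh2 mutants over wild type (± SE; each panel has its own scale) for ezh2, ezh1 and suz12b, by the column of counts and the class of libraries used. Filled symbols passed the test; at 0 and 3.3 hpf ezh2 lies between -5.95 and -5.64 in all 3 rows of sense minus antisense counts and between -2.69 and -1.01 in the sense and unstranded columns. No value is drawn for ezh1 in the high class at 3.3 hpf, where it was too low to be tested.

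ezh1, the other catalytic subunit, was scarce throughout, and no genotype difference passed the test. At 0 hpf its net level was lowest at -1.52, median 2.41 and highest 8.16 CPM in mutants, against 0.256, 0.640, -2.04, 1.68 and -0.441 CPM in wild type. The groups overlapped. The log2 fold change was 2.59 with a wide 95% interval of 0.081 to 5.11 (adjusted p = 0.288, edgeR).

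At 3.3 hpf net ezh1 was lowest at -8.18, median 2.68 and highest 9.25 CPM in mutants, against 0.641, 1.63, 0.836, -0.930 and -0.689 CPM in wild type. The log2 fold change was 2.57 (interval 0.31 to 4.83, adjusted p = 0.232, edgeR), and the groups overlapped through 1 high-class mutant library. This was replicate 7 at -8.18 CPM, with 3517 sense and 3632 antisense reads. The net values of the other mutant libraries were 2.61 CPM or more, above every wild-type value. This order leaves out replicate 7 after its value was seen, and its share over all genes was not counted. It also lies partly within counting error. The counting interval of wild-type replicate 4 was -6.54 to 4.68 CPM, which takes in the lowest of these mutant values. That of wild-type replicate 5, at -2.49 to 1.11 CPM, included 0 but stayed below them.

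The low class, with at most 6 antisense reads of ezh1, separated the genotypes at these stages. At 0 hpf it held 4.38, 8.16 and 1.78 CPM in mutants, against 0.256 and 0.640 CPM in wild type. At 3.3 hpf it held 2.68, 9.25, 2.61 and 3.58 CPM in mutants, against 0.641 and 1.63 CPM in wild type. Mutants were higher without overlap in both, with log2 fold changes of 3.51 (adjusted p = 0.0998, edgeR) and 2.03 (adjusted p = 0.222), which did not pass the test over all genes. With 3 against 2 and 4 against 2 libraries such an order can arise by chance, and its share over all genes was not counted. The mutant values of 1.78, 2.61 and 3.58 CPM came from the libraries with 9.59% to 18.8% antisense reads over all genes. The low-class wild-type libraries were replicates 1 and 2 at both stages.

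In the high class the counting interval of net ezh1 included 0 in 11 of 18 libraries, and in the low class in 1 of 18. For most high-class libraries, then, an ezh1 level could not be told from 0 at this depth. Counted on the sense strand alone or on both strands, the sign of the 0 hpf difference turned, to -1.33 (adjusted p = 0.712) and -1.58 (adjusted p = 0.662).

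At 24 hpf net ezh1 was lowest at -3.04, median 3.87 and highest 4.46 CPM in mutants, and lowest at 0.916, median 4.99 and highest 5.56 CPM in wild type. The groups overlapped, and the log2 fold change was -0.39 (interval -1.52 to 0.74, adjusted p = 1.00, edgeR). Between 3.3 and 24 hpf the log2 change of ezh1 in mutants was -0.17 (SE 0.83, adjusted p = 0.862, edgeR). In wild type ezh1 rose by 2.67 (SE 1.03, adjusted p = 0.0196, edgeR), but the interaction of -2.83 did not pass the test (SE 1.30, adjusted p = 0.299). Beside these counts, 40.6% of genes passed the test upward and 35.4% downward in mutants between 3.3 and 24 hpf, and 41% and 34.2% in wild type, so that passing it at this interval was common. The wild-type rise was not called with the sense column alone (0.73, adjusted p = 0.646), with both strands (0.44, adjusted p = 0.808) or in the high class alone (3.65, adjusted p = 0.0783). Its size with RLE size factors was 3.05.

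Among the stages, mean net ezh1 in mutants was 2.84 ± 3.27 CPM at 0 hpf, 2.48 ± 5.26 CPM at 3.3 hpf and 2.78 ± 2.68 CPM at 24 hpf (SD), all overlapping. In wild type the means were 0.019 ± 1.38, 0.297 ± 1.08 and 4.24 ± 1.80 CPM at 0, 3.3 and 24 hpf. Here the 24 hpf libraries overlapped the earlier ones through a single library at 0.916 CPM.

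suz12b, the gene for a scaffold subunit, showed no genotype difference that passed the test at any stage. At 0 hpf its net level was lowest at 62.9, median 76.7 and highest 118 CPM in mutants, against 109, 108, 81.4, 93.6 and 89.7 CPM in wild type. The log2 fold change of -0.12 had an interval of -0.55 to 0.31 (adjusted p = 0.894, edgeR).

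At 3.3 hpf net suz12b was lowest at 64.6, median 83.4 and highest 108 CPM in mutants, against 101, 106, 82.4, 84.9 and 70.2 CPM in wild type. The interval of the log2 fold change was -0.28 to 0.30 (adjusted p = 0.992, edgeR). At 24 hpf it was lowest at 62.1, median 66.4 and highest 86.5 CPM in mutants, and lowest at 62.3, median 70.5 and highest 92.3 CPM in wild type, with an interval of -0.26 to 0.23 (adjusted p = 1.00, edgeR). The genotypes overlapped at each stage.

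Library class moved with suz12b too, although its antisense reads were few in the high class. At 0 hpf the mutant libraries were at 62.9 to 70.5 CPM in the high class and at 82.9 to 118 CPM in the low class, and the wild-type libraries at 81.4 to 93.6 CPM in the high class and 108 to 109 CPM in the low class. The low-class wild-type libraries were replicates 1 and 2. Mutant replicates 1 and 2 were the highest mutant libraries, at 112 and 118 CPM. Mutant replicate 4, also of the low class, was at 82.9 CPM, within the range of the high-class wild-type libraries. At 3.3 hpf the low-class wild-type libraries were again replicates 1 and 2, at 101 and 106 CPM, against 70.2 to 84.9 CPM in the high class. Mutant replicates 1 and 2 were again the highest mutant libraries, at 98.2 and 108 CPM. In wild type at 0 and 3.3 hpf, class and these replicate numbers cannot be told apart. The part of either in this spread was not tested.

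Mean suz12b in mutants was 85.1 ± 24.2 CPM at 0 hpf, 85.4 ± 14.6 CPM at 3.3 hpf and 72.2 ± 10.2 CPM at 24 hpf, and in wild type 96.37 ± 11.98, 88.8 ± 14.4 and 72.9 ± 10.9 CPM. Neighbouring stages overlapped. Between 3.3 and 24 hpf the log2 change was -0.24 in mutants (SE 0.14, adjusted p = 0.121) and -0.28 in wild type (SE 0.16, adjusted p = 0.107, edgeR), neither past the test. Its direction depended on scaling: relative log expression (RLE) size factors moved the median change of all genes from 0.15 to 0.48 in mutants and from 0.21 to 0.55 in wild type, and the suz12b values to 0.087 and 0.058. Relative to that median, suz12b was lower at 24 hpf under either scaling.

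For the interaction of genotype and stage between 0 and 3.3 hpf, no member passed the edgeR test, and neither did any other gene (0%). At an unadjusted p below 0.05, edgeR counted 422 of 20702 genes, where evenly spread p-values would give 1035.1, and DESeq2 called 8 genes after adjustment.

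In the rest of the complex, ezh2 was the 1 gene among the 7 core genes tested that passed the genotype test, at each of the 3 stages. Within the high class alone, rbb4l passed it at 0 hpf as well (-0.80, SE 0.16, adjusted p = 0.0464, edgeR). Its low-class value was -0.38 (SE 0.31, adjusted p = 0.522). The second SUZ12 gene (ENSDARG00000070256) had a mean net level of 333 ± 41.9 CPM in mutants and 334 ± 24.1 CPM in wild type at 0 hpf. EED, which encodes the subunit that binds H3K27me3, had 49.7 ± 10.8 CPM in mutants and 56.7 ± 22.5 CPM in wild type. The median log2 fold change of the core list was -0.12 at 0 hpf, -0.017 at 3.3 hpf and -0.24 at 24 hpf, beside -0.018, -0.043 and -0.017 over all genes tested.

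Among the accessory subunits, 2 of the 5 tested rose in mutants at 0 and at 3.3 hpf, where 5.27% and 5.44% of all genes tested did. JARID2 helps to recruit PRC2 to chromatin, and 1 of its 2 genes, ENSDARG00000060925, was barely present in early wild-type embryos. At 0 hpf it was lowest at 8.98, median 14.1 and highest 40.8 CPM in mutants, against 0.982, 1.16, 0.339, 0.201 and 1.18 CPM in wild type. Mutants lay above wild type without overlap, with a log2 fold change of 4.57 (SE 0.57, adjusted p = 0.00076, edgeR).

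At 3.3 hpf this JARID2 gene was lowest at 10.4, median 16.5 and highest 40.1 CPM in mutants, against 0.641, 1.67, 0.502, 0.465 and 0.115 CPM in wild type, a log2 fold change of 4.85 (SE 0.54, adjusted p = 0.00016, edgeR). At 24 hpf the means were 26.2 ± 9.46 CPM in mutants and 24.5 ± 7.11 CPM in wild type (adjusted p = 1.00), and the interaction between 3.3 and 24 hpf was -4.66 (adjusted p = 2.7e-06, edgeR). In wild type the gene rose by 5.06 between these stages. It passed the genotype test within the high class and within the low class at both early stages, while the second JARID2 gene (ENSDARG00000062268) had log2 fold changes of 0.37 and 0.013 there, neither past the test.

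PHF19, a Polycomb-like subunit that binds methylated lysine 36 of histone H3 in mammals, had the same order. At 0 hpf it was lowest at 5.86, median 8.71 and highest 15.8 CPM in mutants, against 1.41, 0.919, 4.24, 0.0671 and 1.18 CPM in wild type. The log2 fold changes were 2.72 at 0 hpf (SE 0.68, adjusted p = 0.0356) and 2.35 at 3.3 hpf (SE 0.40, adjusted p = 0.0029, edgeR), without overlap at either stage. Within 1 library class alone the size stayed between 2.37 and 3.21, but no such value passed the test (adjusted p between 0.0545 and 0.284). At 24 hpf the value was -0.20.

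The 24 hpf tissue markers summed to 2.72 to 5.33 CPM in mutants and 2.38 to 4.48 CPM in wild type at 0 hpf. In all 24 hpf libraries the sum was 1740 CPM or more. At 0 hpf the mean of ckma was lower in mutants (1.22 CPM, against 2.16 CPM in wild type). The means of actc1b, ELAVL3, NEUROD4 and GFAP were higher in mutants, and neither of the 2 markers that could be tested passed the test. Whether tissue RNA has a part in the differences above was not tested. Of the 7 markers of first transcription from the embryo's genome, 2 could be tested at 0 hpf. Of these, tbxta was higher in mutants (2.82 ± 2.36 CPM in mutants, 0.435 ± 0.117 CPM in wild type, adjusted p = 0.0318, edgeR), and the other did not pass. The tbxta groups overlapped (lowest mutant 0.357, highest wild type 0.600 CPM), and 5.27% of all genes tested passed upward. At 3.3 hpf 0 of 5 passed in either direction.

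**Figure D4:**
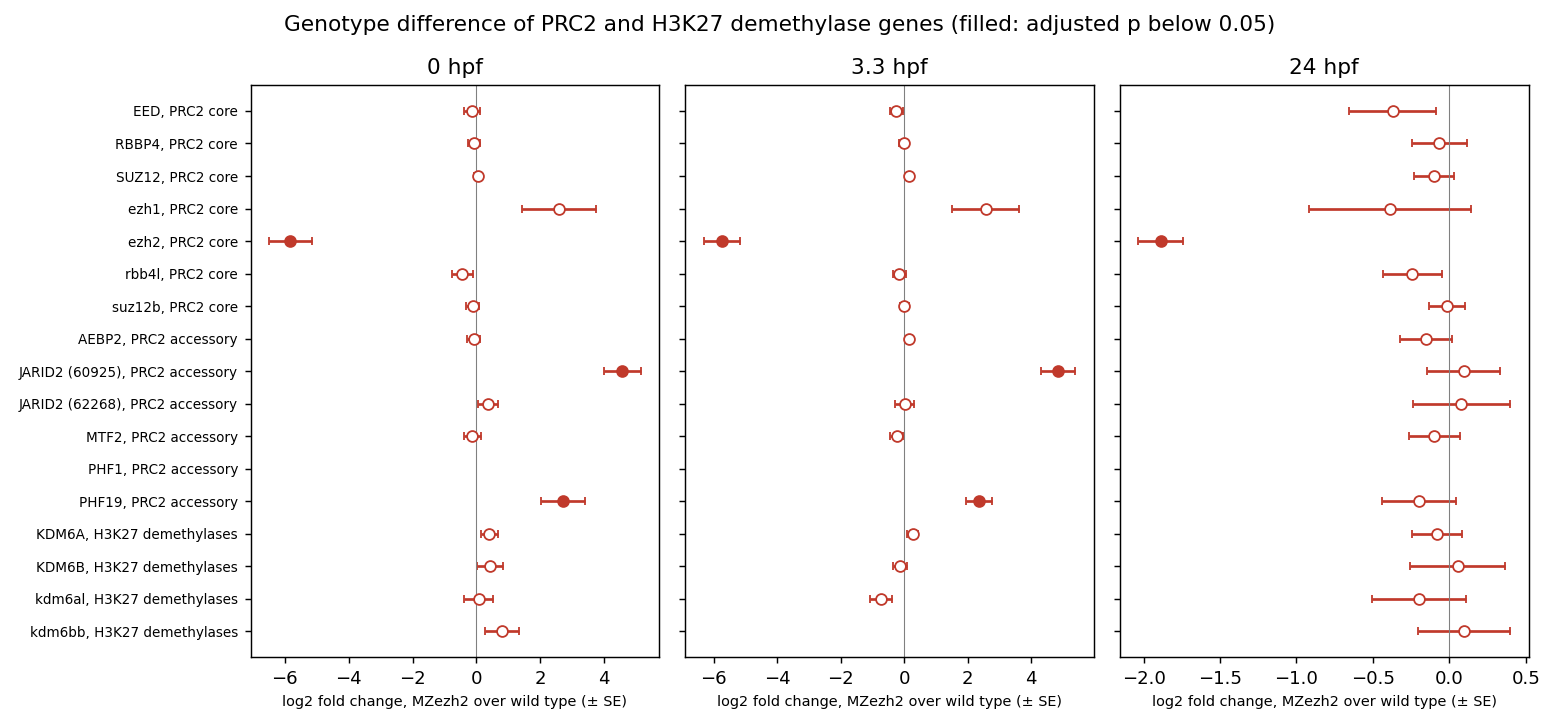
Log2 fold change of MZezh2 mutants over wild type (± SE; the 24 hpf panel has a narrower scale) for the genes of the PRC2 core, its accessory subunits and the H3K27 demethylases. Filled symbols passed the test; ezh2 is lower at each stage, and a JARID2 gene and PHF19 are higher at 0 and 3.3 hpf, while genes without a symbol in a panel were too low to be tested.

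No gene of the H3K27 demethylases, which remove the mark that PRC2 places, passed the genotype test of edgeR among the 4, 3 and 4 tested at 0, 3.3 and 24 hpf. None had an unadjusted p below 0.05 in these fits of both classes. Within 1 class alone none passed it either, although kdm6al at 3.3 hpf was at -1.40 in the low class (SE 0.28, adjusted p = 0.0558, edgeR). Its high-class value was -0.10 (adjusted p = 0.927, edgeR). In PRC1, the partner complex that binds H3K27me3 and ubiquitinates histone H2A, 0 of 23 and 0 of 22 genes passed it at 0 and 3.3 hpf, with 3 and 4 at an unadjusted p below 0.05. At 24 hpf 4 of 24 were higher in mutants, where 0.29% of all genes tested were, among them both BMI1 genes and 1 CBX8 gene (ENSDARG00000087327). The largest of these 3 had a log2 fold change of 1.82 (BMI1, ENSDARG00000006010).

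Between 3.3 and 24 hpf some core genes rose and others fell. The second SUZ12 gene fell by 1.56 on the log2 scale in mutants and by 1.38 in wild type, where the suz12b values were -0.24 and -0.28. RBBP4 rose by 0.69 in mutants and 0.68 in wild type. rbb4l rose as well, by 1.10 and 1.12. EED fell by 0.75 in mutants and by 0.71 in wild type, a call that was lost with RLE size factors (adjusted p = 0.0924 and 0.200). Counting ezh2, the core list had 3 genes up and 2 down in mutants. In wild type it likewise had 3 up, ezh1 among them, and 2 down. Of all genes tested, 40.6% rose and 35.4% fell in mutants and 41% and 34.2% in wild type, so that 3 and 2 of 7 are near the share of all genes.

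The genes most like each member over the 36 libraries, by Pearson's correlation of log2(net CPM + 1) among 13283 genes with a mean of at least 5 net CPM, differed between the members. For ezh2 they included rbm4.1 (r = 0.852), GPX8, XAB2, oxsr1a and PTBP1. rbm4.1 had 21.2 CPM in mutants and 57.8 CPM in wild type at 0 hpf. For ezh1 they included SEMA3F (r = 0.765), HMX3, PHLDB2 and USP2, and for suz12b SMARCB1 (r = 0.912), SAV1, BTBD2 and PARD6G. ezh1 itself had a mean below 5 net CPM and was kept as a member, with negative values set to 0. Its correlations therefore rest on small net counts. These libraries share stages, genotypes and library classes, and the values are descriptions of 36 points that are not independent.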

How the data were processed

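The authors mapped reads to GRCz10 with STAR (2.5.2b in the submitters' processing notes) and Ensembl annotation and deposited raw counts per gene, with an unstranded column and a column for each strand. A share of reads between 24.8% and 79.1% per library was assigned to no gene and stayed out of all totals. According to the authors, 2 samples per genotype at 24 hpf were made with another kit and sequenced single-end on another machine. No source used here says which. Counts of sense minus antisense reads, with negative values set to 0, were tested with edgeR 4.0.16 (filterByExpr, TMM, quasi-likelihood, R 4.3.3), within each stage for genotype and over all 36 libraries for stage and interaction. Tested on simulated data, the 0 hpf fit recovered 20% of genes changed by 1 on the log2 scale and 64% of those changed by 2. These shares were 29% and 66% at 3.3 hpf, 30% and 91% at 24 hpf, and 11% and 62% for 24 over 3.3 hpf in wild type. False calls were 3, 0, 5 and 5 genes in these fits. The simulated counts had no antisense reads to subtract, so the shares may not hold for ezh2 and ezh1. DESeq2 1.42.0 and other columns, scalings, filters and libraries were alternatives. Same-numbered samples did not all deviate together (correlations between 0.0406 and 0.686), so replicate numbers were not used as pairs. Replicates 1 and 2, however, deviated together across genotypes at each stage, with correlations between 0.402 and 0.686. Their correlations with most later replicates were negative, and they had the highest total counts of each group. The labels do not say what set them apart, and the main genotype fits had no term for it. Named genes were the members, the PRC2 and H3K27 demethylase lists, PRC1 genes that passed the test, tbxta and the 5 genes most correlated with each member, of which some are not reported here. Members and lists were chosen with earlier results of these data known. Levels were not compared between genes, since transcript lengths were not used. ChIP-seq peaks of the series were not analysed here.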

Additional observations from a re-analysis of the deposited data

Results flagged for a closer look

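A library lay far from the rest of its group in 2 of the 18 sets of net levels examined. Chance alone does this in about 1 in 20 sets whose values carry equal error, which these did not. For ezh1 in MZezh2 mutants at 3.3 hpf, replicate 7 had -8.18 net CPM, against 2.61 to 9.25 CPM in the other libraries of the group. For ezh1 in MZezh2 mutants at 24 hpf, replicate 5 had -3.04 net CPM, against 2.12 to 4.46 CPM in the others. Both are high-class libraries with more antisense than sense ezh1 reads, 3632 against 3517 in replicate 7 at 3.3 hpf and 917 against 897 in replicate 5 at 24 hpf. The part of these reads in the ezh1 results was not tested beyond leaving each library out.

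The change of ezh2 between 3.3 and 24 hpf differed between the genotypes by 3.90 on the log2 scale (adjusted p = 0.00018, edgeR). This is a test of the difference itself. At 24 hpf ezh2 was higher in 7 of 7 mutant libraries and lower in 6 of 6 wild-type libraries than in any library of the same genotype at 3.3 hpf. The wild-type change did not pass the test (-0.73, adjusted p = 0.163, edgeR). Of all genes, 40.6% passed it upward in mutants and 34.2% downward in wild type over this interval. The share of genes without overlap was not counted.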

How the results depend on the processing

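The loss of ezh2 in MZezh2 mutants kept its direction under every alternative run, and its call wherever antisense reads were subtracted, except in the high class alone and in 1 joint fit at 24 hpf. The ezh1 differences rest on small net counts, and suz12b differences are near 0, so most changes of sign below are between values that passed the test under neither setting. Their cause was not tested. The library classes were defined after seeing the data.

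With the sense column alone, ezh2 differed between genotypes by -1.74 at 0 hpf and -2.69 at 3.3 hpf on the log2 scale, changed by -0.76 (3.3 over 0 hpf) and 0.36 (24 over 3.3 hpf) in mutants, and had interactions of -0.99 and 1.24. ezh1 differed by -1.33 at 0 hpf and 0.68 at 24 hpf, changed by -1.65 and 0.73 in wild type, and had a first interaction of 3.62. suz12b differed by -0.029 at 3.3 hpf, and changed by -0.010 and -0.33 in mutants and -0.39 (24 over 3.3 hpf) in wild type, both later changes past the test.

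With the unstranded column, ezh2 differed by -1.01, -2.05 and -1.29 at 0, 3.3 and 24 hpf, changed by -0.80 and -0.19 in mutants, and had interactions of -1.05 and 0.80. ezh1 differed by -1.58 at 0 hpf and 0.81 at 24 hpf, changed by -1.68 and 0.44 in wild type, and had a first interaction of 3.83. suz12b differed by -0.072 at 3.3 hpf, and changed by -0.018 and -0.41 in mutants and -0.48 in wild type.

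With RLE size factors suz12b differed by -0.020 at 3.3 hpf, changed by -0.0036 and 0.087 in mutants and by 0.058 in wild type (24 over 3.3 hpf), and ezh1 changed by 0.13 in mutants. They moved the split of calls between 3.3 and 24 hpf to 9515 higher and 6230 lower in mutants, against 8409 and 7321, and to 9450 and 6008 in wild type, against 8478 and 7089. With DESeq2 the corresponding member values were -0.027, -0.0057, 0.085, 0.059 and 0.13. Without a filter suz12b gave -0.039 and -0.017. With all libraries fitted together ezh2 differed by -1.89 at 24 hpf (adjusted p = 0.0839, edgeR) and suz12b by -0.056 at 3.3 hpf. Without replicates 1 and 2 of 24 hpf suz12b changed by -0.35 in mutants and -0.40 in wild type, past the test, and with them as a batch term it differed by 0.0045 at 24 hpf.

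In the high class alone ezh2 differed by -5.64 at 0 hpf and -5.90 at 3.3 hpf, changed by -0.066 in mutants (3.3 over 0 hpf), and had interactions of -0.22 and 3.90, the last not past the test. ezh1 changed by 0.26 in mutants and by -0.97 and 3.65 in wild type, with a first interaction of 1.82, and suz12b gave -0.044 at 3.3 hpf and a second interaction of -0.012. In the low class alone suz12b differed by 0.021, -0.12 and 0.022 at 0, 3.3 and 24 hpf, changed by -0.20 in mutants and had a first interaction of -0.077, ezh1 changed by -0.11 in mutants, and ezh2 fell by 0.64 in wild type between 3.3 and 24 hpf (adjusted p = 0.0258, edgeR). With class as a term suz12b differed by -0.045 at 3.3 hpf.

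Replicate numbers paired only some samples (2 of 5, 2 of 5 and 3 of 6 wild-type libraries correlated best with their own number at 0, 3.3 and 24 hpf). With the replicate block, ezh1 differed by 3.29 at 3.3 hpf, past the test, suz12b by 0.0033 at 24 hpf, and suz12b changed by -0.25 in mutants and -0.26 in wild type between 3.3 and 24 hpf, past the test. The first ezh1 interaction was 0.088. The block gave 130 genes for genotype at 24 hpf and 1160 for 3.3 over 0 hpf in mutants.

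Counts of genes past the test moved by more than 1.5 times as follows. For genotype at 0 hpf, against 915, they were 1992 with DESeq2, 1680 with class as a term, 340 in the high class and 2306 with all libraries fitted together. At 3.3 hpf, against 924, they were 1879 with DESeq2, 319 in the low class, 341 in the high class and 1820 together. At 24 hpf, against 78, they were 259 with DESeq2, 149 with the batch term, 212 with class as a term, 14 in the low class, 260 in the high class and 32 together. For 3.3 over 0 hpf they were 931 with DESeq2, 29 in the low class and 1819 in the high class in mutants, against 598, and 13 and 1012 in wild type, against 557. For the first interaction, against 0, they were 8 with DESeq2, 4 in the low class and 1 in the high class. For the second, against 920, they were 585 without replicates 1 and 2 of 24 hpf, 593 in the low class and 412 in the high class.

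Leaving out each library in turn, ezh2 differed by -6.35 to -5.56 at 0 hpf, -6.03 to -5.53 at 3.3 hpf and -1.96 to -1.80 at 24 hpf, past the test each time. suz12b differed by -0.087 to 0.064 at 3.3 hpf and -0.056 to 0.049 at 24 hpf, changed by -0.069 to 0.12 (3.3 over 0 hpf) in mutants and by -0.36 to -0.19 (24 over 3.3 hpf) in wild type, and had a second interaction of -0.047 to 0.12. Its wild-type change passed the test without wild-type 24 hpf replicate 1 (adjusted p = 0.0481, edgeR). ezh1 changed by -0.22 to 0.79 and -0.39 to 0.27 in mutants and by -0.42 to 1.29 in wild type, with a first interaction of -1.07 to 0.64, and that of ezh2 was -0.19 to 0.62. The counts ran between 576 and 803 for genotype at 0 hpf (576 without wild-type replicate 2, 604 without replicate 1), 357 and 733 for 3.3 over 0 hpf in mutants (357 without mutant 3.3 hpf replicate 3, 359 and 370 without mutant 0 hpf replicates 5 and 6), 342 and 664 in wild type (342 without 3.3 hpf replicate 5), and 0 and 4 for the first interaction (4 without wild-type 3.3 hpf replicate 2). Counting error limits ezh1, whose interval of the net level included 0 in 11 of 18 high-class and 1 of 18 low-class libraries.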

Other observations

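Of the 5538 genes with a mean of at least 1 antisense CPM, 3 had an antisense level that was higher in every high-class library than in every low-class library. The first was ezh2, which defined the classes. The second was hsp70l, a heat shock gene, with 1.34 to 11.1 antisense CPM in the high class and 0 to 0.346 in the low class. The third was si:ch1073-127a7.1, with 57.6 to 84.1 antisense CPM in the high class and 26.0 to 54.1 in the low class. These genes were picked after their values were seen, and no test was made of them.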
